A study of Mus musculus with 6 samples.

Results

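The SR and hnRNP genes are described here in single cells of the neonatal mouse cortex. Members were taken by symbol from the deposited count table: genes named *Srsf* followed by a number, genes whose symbol starts with *Hnrnp*, and *Rbm39*. This gave 32 of the 17418 genes of the table, namely 11 SR genes, 20 hnRNP genes and *Rbm39*. *Rbm39*, *Hnrnpm* and *Srsf3* are genes that the study itself names, so their values are not independent of these mice.

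SR proteins carry RNA recognition motifs and a tail rich in arginine and serine, and bound to exons they mostly favour the use of nearby splice sites. The hnRNP proteins coat nascent transcripts and often act against the SR proteins, for example by binding silencers or by looping out exons, and many also act in RNA export, transport or decay. RBM39 resembles the large U2AF subunit, which reads the 3′ splice site, and has an SR-like tail of its own. Proteins of both families are abundant in the nucleus, and many of their genes control their own level through exons that send the transcript to nonsense-mediated decay (NMD).

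The study asked how loss of FMRP, the RNA-binding protein encoded by *Fmr1*, changes the RNA of each cortical cell type. Cells came from the cerebral cortex of 3 wild type mice (WT, FVB.129P2-Pde6b+ Tyrc-ch/AntJ) and 3 *Fmr1*-KO mice (FVB.129P2-Pde6b+ Tyrc-ch Fmr1tm1Cgr/J) at postnatal day 5 and were sequenced with InDrop, a droplet method that reads the 3′ end of transcripts and counts molecules by unique molecular identifiers (UMIs). *Fmr1*-KO is a constitutive loss in every cell of the animal, and each mouse is 1 sample, so n = 3 per genotype. WT 1, *Fmr1*-KO 1 and *Fmr1*-KO 2 were collected in batch 1 on version 2 beads, and WT 2, WT 3 and *Fmr1*-KO 3 in batch 2 on version 3.8 beads, so collection batch and bead version cannot be told apart. The 17 libraries hold 18393 cells, of which 1113 marked as doublets by the authors were left out here. The 17280 others gave 7909181 to 20629134 UMIs per mouse. *Fmr1* itself (chrX:68678541-68717963, mm10) had a mean level over all cells of 71.6 ± 2.96 UMIs per 1000000 (CPM; SD of 3 mice) in WT, against 17.7 ± 1.93 for the knockouts. Its tags come from the 3′ end, outside the disrupted part of the gene, so its level sets the 3 mice labelled *Fmr1*-KO below the 3 labelled WT but does not show whether protein could be made.

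The neurons were split by the authors into excitatory neurons (2160 cells), immature interneurons (1109 cells), precursors of the ganglionic eminence (682 cells, called ganglionic cells below) and 2 small groups. The markers largely followed these names. *Nrgn*, a gene of excitatory neurons, lay between 2077 and 4357 CPM in excitatory neurons against 24.9 to 321 in interneurons, and the mitosis gene *Top2a* between 1135 and 1617 in ganglionic cells, where interneurons had 6.38 to 27.3. *Gad1*, which makes the transmitter of inhibitory neurons, lay between 315 and 412 CPM in interneurons. In the excitatory group it was 192 in WT 1 and 155, 42.9 and 5.62 in *Fmr1*-KO 1, 2 and 3, against 6.94 and 32.4 in WT 2 and WT 3, and *Top2a* was 105 in *Fmr1*-KO 1 and at most 22.6 in the other mice, so in batch 1 the excitatory group also held markers of other neurons. Counts were summed per mouse and subtype. In the 3 large neuron subtypes the fewest cells were those of interneurons in WT 2 (59 cells) and of ganglionic cells in WT 3 (61 cells), and oligodendrocytes had 26 cells in WT 1 and 24 in *Fmr1*-KO 1. Of the cells, 24.8% carried a barcode that occurred in another library of the same mouse, from 5.12% to 46.5% per library, and 90.9% of these 1975 barcodes had the same subtype label each time. Such cells may be 1 cell sequenced in several libraries, so results are also given without them.

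By the mouse annotation (GENCODE M21 on GRCm38, the same assembly as mm10), 9 of the 11 SR genes and 10 of the 20 hnRNP genes have a transcript annotated as an NMD target. With *Rbm39* this is 62.5% of the 32 genes, against 27.8% of the 7993 protein-coding genes with enough counts for the comparison of cell types. A retained-intron transcript is annotated for 71.9% of the members and 61.8% of those genes. The members also have more annotated transcripts of any kind, with a median of 7.5 per gene against 5, and the percentages are not adjusted for this. The 3′ tags used here do not tell such transcripts from the productive ones. *Srsf2*, *Hnrnpab*, *Hnrnph3*, *Hnrnpk*, *Hnrnpm* and *Hnrnpu* overlap another gene of the table, so part of their reads could belong to the neighbour. The authors ignored reads that mapped to several places, so a gene with near-identical copies elsewhere, as *Hnrnpa1* has among its processed pseudogenes, may be undercounted.

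Promoter sequences (RefSeq, GRCm38.p6, 250 bases before to 50 bases after the start) were found for 30 of the 32 members, with 43 promoters in all. Their median CpG count was 31 per promoter, against 17 over the 16356 promoters of genes in the table, and their median GC content 67.3% against 59%. Motifs were searched on both strands. The E2F letters TTTCCCGC, known from promoters of S-phase genes, were in 9.30% of the member promoters (*Srsf1*, *Srsf10*, *Hnrnpr* and *Hnrnpul1*) and in 1.61% of all promoters. CCAAT was in 51.2% against 37.3%, the ETS letters CCGGAAG in 23.3% against 13.5%, the E-box CACGTG in 11.6% against 8.89%, and TATAAA in 9.30% against 8.89%. The NRF1 letters were in 2.33% against 1.65% and the YY1 letters in 0% against 1.47%. These percentages count promoters, so a gene with several promoters counts several times, and some windows overlap, as in *Srsf4* and *Hnrnph1*. *Hnrnpf*, *Srsf4* and *Srsf11* each gave more than a single promoter with the ETS letters. None of these matches shows binding. *Srsf1*, which carries the E2F letters, and the 3 genes the study names are shown, 5′ to 3′ on the strand of the gene, with motif matches in capitals (ATTGG is CCAAT read on the other strand). *Srsf1* is chr11:88047123-88047422 on the plus strand, *Srsf3* chr17:29032410-29032709 on the plus strand, *Hnrnpm* chr17:33685409-33685708 on the minus strand and *Rbm39* chr2:156180189-156180488 on the minus strand.
Srsf1: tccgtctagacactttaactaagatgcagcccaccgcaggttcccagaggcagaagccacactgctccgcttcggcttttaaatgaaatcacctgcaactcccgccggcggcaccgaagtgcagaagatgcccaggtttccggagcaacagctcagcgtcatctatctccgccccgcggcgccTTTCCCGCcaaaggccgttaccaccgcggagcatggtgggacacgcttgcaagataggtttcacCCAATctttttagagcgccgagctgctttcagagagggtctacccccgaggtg
Srsf3: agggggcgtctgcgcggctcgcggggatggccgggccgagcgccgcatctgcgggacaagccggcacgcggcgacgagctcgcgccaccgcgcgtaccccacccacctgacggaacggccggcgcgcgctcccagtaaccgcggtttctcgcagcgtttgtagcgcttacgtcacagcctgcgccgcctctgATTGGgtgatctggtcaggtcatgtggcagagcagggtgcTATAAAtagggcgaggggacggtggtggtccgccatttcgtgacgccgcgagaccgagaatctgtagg
Hnrnpm: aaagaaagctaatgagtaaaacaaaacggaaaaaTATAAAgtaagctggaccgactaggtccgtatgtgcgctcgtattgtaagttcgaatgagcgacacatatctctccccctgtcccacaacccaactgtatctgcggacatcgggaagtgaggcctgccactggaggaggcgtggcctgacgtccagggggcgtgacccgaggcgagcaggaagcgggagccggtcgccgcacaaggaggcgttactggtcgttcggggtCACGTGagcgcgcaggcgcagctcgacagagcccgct
Rbm39: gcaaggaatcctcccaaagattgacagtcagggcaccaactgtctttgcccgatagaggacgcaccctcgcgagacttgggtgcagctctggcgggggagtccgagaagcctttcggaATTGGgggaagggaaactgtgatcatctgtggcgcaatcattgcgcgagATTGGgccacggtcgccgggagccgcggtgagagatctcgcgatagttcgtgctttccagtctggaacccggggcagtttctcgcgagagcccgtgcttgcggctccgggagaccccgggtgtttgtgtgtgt
*Srsf1* has the E2F letters and a CCAAT, *Srsf3* a CCAAT on the other strand and TATAAA, and *Hnrnpm* TATAAA and the E-box. *Rbm39* has CCAAT on the other strand at 2 places. A second *Rbm39* promoter of the table (chr2:156179531-156179830, minus strand) has none of the motifs searched.

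Across the cell types of WT mice, the RNA of these genes was most abundant in ganglionic cells and least abundant in excitatory neurons among the 3 large neuron subtypes. Summed over the 32 genes, the share of UMIs in ganglionic cells was 1.96% in WT 1, 1.93% in WT 2 and 1.91% in WT 3. In interneurons it was 1.30%, 1.11% and 1.17%, and in excitatory neurons 0.605%, 0.628% and 0.632%. The 3 subtypes did not overlap in any pair of mice, and the order held in the *Fmr1*-KO mice, whose shares were 2.07%, 2.03% and 1.74% in ganglionic cells, 1.34%, 1.33% and 1.13% in interneurons and 0.695%, 0.596% and 0.667% in excitatory neurons. Within a mouse, the ganglionic share was 2.60 to 3.41 times the excitatory share and 1.5 to 1.74 times the interneuron share, and the interneuron share was 1.70 to 2.23 times the excitatory share. Both families had this order: in WT, the SR genes took 0.384% ± 0.0259, 0.245% ± 0.0178 and 0.139% ± 0.00702 of UMIs in ganglionic cells, interneurons and excitatory neurons, and the hnRNP genes 1.51% ± 0.0412, 0.919% ± 0.0793 and 0.467% ± 0.0183 (mean ± SD, n = 3 mice).

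**Figure D1:**
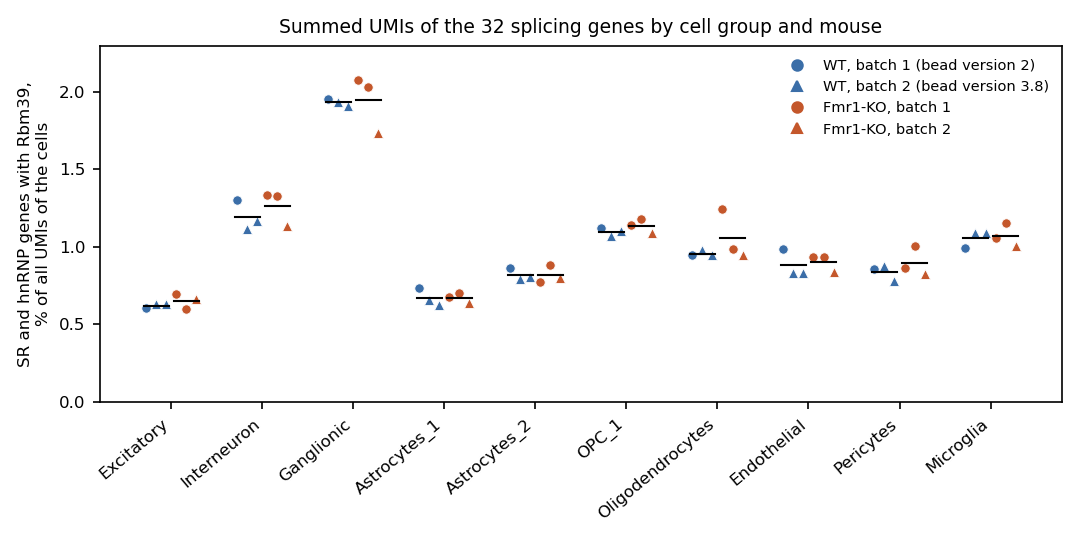
Share of each mouse's UMIs (percent, y axis) that came from the 32 SR and hnRNP genes and Rbm39, for 10 subtypes (x axis); each point is 1 mouse, by genotype. Ganglionic cells stood highest, from 1.74% to 2.07%, and excitatory neurons between 0.596% and 0.695%.

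Outside the neurons, the same share in WT was 1.10% ± 0.0253 in the first group of oligodendrocyte precursors (OPC), 1.06% ± 0.0585 in microglia, 0.956% ± 0.0183 in oligodendrocytes, 0.882% ± 0.0886 in endothelial cells, 0.838% ± 0.0523 in pericytes, 0.821% ± 0.0370 in the second and 0.672% ± 0.0543 in the first astrocyte group. OPC and microglia lay within 1 SD of each other, as did endothelial cells, pericytes and the second astrocyte group. The second OPC group, with 17 to 21 cells per WT mouse, had 1.38% ± 0.0177, above each of these and above interneurons. Of the small neuron groups, Cajal-Retzius cells had 0.680% in WT 1 and 0.571% in WT 3. Migrating neurons of the subventricular zone had 1.11% in WT 1. The other WT mice had fewer than 10 cells of these small groups. A share of UMIs is relative: more RNA of these genes and less RNA of all others cannot be told apart. The cell groups were drawn by the authors from the expression of variable genes in these same cells, which may include members. The tests between the groups below thus only set a difference against the spread between mice.

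Markers of division went with this order in part. The summed level of 23 markers of dividing cells was 9319 to 12044 CPM in ganglionic cells of WT mice, with none of them at 0, and 454 to 880 CPM in interneurons and 235 to 1123 CPM in excitatory neurons over all 6 mice. Within ganglionic cells it was 3695 to 6412 CPM in cells that the authors called G1 and 11218 to 13889 CPM in those called S or G2M, while the members' share was 1.74% to 2.09% in the first and 1.74% to 2.07% in the second. G1-called ganglionic cells still carried division markers at 3695 CPM or more, above the interneurons. Interneurons, with few such markers, were above excitatory neurons in the members' share. Genes induced by dissociation (11 genes) summed to 2954 to 3988 CPM in ganglionic cells, 1232 to 1588 in interneurons and 585 to 995 in excitatory neurons of WT mice. The part of either in the difference was not tested.

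Ganglionic cells of WT mice were above excitatory neurons for 27 of the 31 members tested and below for 0 (edgeR, by the adjusted p and the minimum fold that the study used). Over all 8289 genes tested, 17.4% were called higher and 28% lower. The median log2 fold change was 1.31 for the members and -0.31 for all genes, and the members' values ran from 0.16 to 2.15. By group, 9 of 10 SR genes, 6 of 7 of the hnRNP A/B/D genes, 3 of 4 of hnRNP F/H, 8 of 9 of the other hnRNP genes and *Rbm39* were called higher. In the *Fmr1*-KO mice by themselves 29 members were called higher, with a median of 1.47, and without the cells of shared barcodes 26 in WT. The median of all genes was -0.11 and -0.23 in these fits, and the share of all genes called was not counted for them.

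*Hnrnpf*, which binds runs of G, had the largest difference. Its level was 699 CPM in WT 1, 1000 in WT 2 and 1039 in WT 3 in ganglionic cells, and 118, 193 and 191 in excitatory neurons. Ganglionic cells of the 3 mice stood far above excitatory neurons, with a log2 fold change of 2.15 ± 0.175 (SE; edgeR adjusted p = 3.0e-11).

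*Hnrnpab*, a protein of RNA transport granules, was at 1796, 1827 and 1761 CPM in ganglionic cells of WT 1, 2 and 3 and at 326, 434 and 393 in excitatory neurons, 1.93 ± 0.148 higher on the log2 scale (edgeR adjusted p = 9.8e-12). *Hnrnpa3*, its relative and the most abundant member in UMIs, was at 2592, 2230 and 2380 CPM against 534, 545 and 558, a log2 fold change of 1.83 ± 0.145 (adjusted p = 1.8e-11). Neither gene had an excitatory value near a ganglionic one. *Srsf9*, the close relative of *Srsf1*, differed by 1.76 ± 0.273 from few counts, *Hnrnpd*, which marks AU-rich mRNAs for decay, by 1.70 ± 0.172 and *Hnrnpul1*, a relative of *Hnrnpu*, by 1.70 ± 0.165.

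*Srsf1*, the founding SR protein, was at 390, 605 and 480 CPM in ganglionic cells of WT 1, 2 and 3, at 275, 212 and 264 in interneurons and at 142, 110 and 116 in excitatory neurons, with no overlap between the subtypes. Of the genes that the study names, *Srsf3*, an SR protein that also serves mRNA export, was at 674, 786 and 801 CPM, 518, 610 and 470 and 198, 274 and 280 in the same order. Its log2 fold change from excitatory to ganglionic was 1.30 ± 0.158. *Hnrnpm*, which binds GU-rich RNA, was at 549, 527 and 385 CPM, 348, 311 and 319 and 150, 158 and 135, with a log2 fold change of 1.44 ± 0.161. *Rbm39* was at 338, 350 and 436 CPM in ganglionic cells and 304, 249 and 370 in interneurons, which overlapped, and at 117, 152 and 193 in excitatory neurons, which lay below both. Its log2 fold change from excitatory to ganglionic was 0.99 ± 0.179, and from interneurons to ganglionic 0.17, which was not called.

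4 members were not called: *Srsf5* (log2 fold change 0.16, edgeR adjusted p = 0.462), *Hnrnpul2* (0.44, adjusted p = 0.0362), *Hnrnpa2b1* (0.52, adjusted p = 0.0564) and *Hnrnph2* (0.55, adjusted p = 0.0598). *Srsf5*, whose level was 262, 263 and 278 CPM in ganglionic cells, was at 271 in excitatory neurons of WT 1 and at 156 and 166 in WT 2 and WT 3, so WT 1 alone reached the ganglionic level. In *Fmr1*-KO 1 and 2, the other mice of batch 1, *Srsf5* stood at 310 and 281 CPM in excitatory neurons, against 136 in *Fmr1*-KO 3 of batch 2. *Hnrnph3* had the same split, at 126, 140 and 158 CPM in the excitatory neurons of the 3 mice of batch 1 and 50.3, 44.1 and 56.2 in those of batch 2. Interneuron markers (10 genes) in excitatory neurons summed to 969, 2193 and 1093 CPM in batch 1 and 283, 246 and 197 CPM in batch 2. Their part in the levels of *Srsf5* and *Hnrnph3* was not tested.

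**Figure D2:**
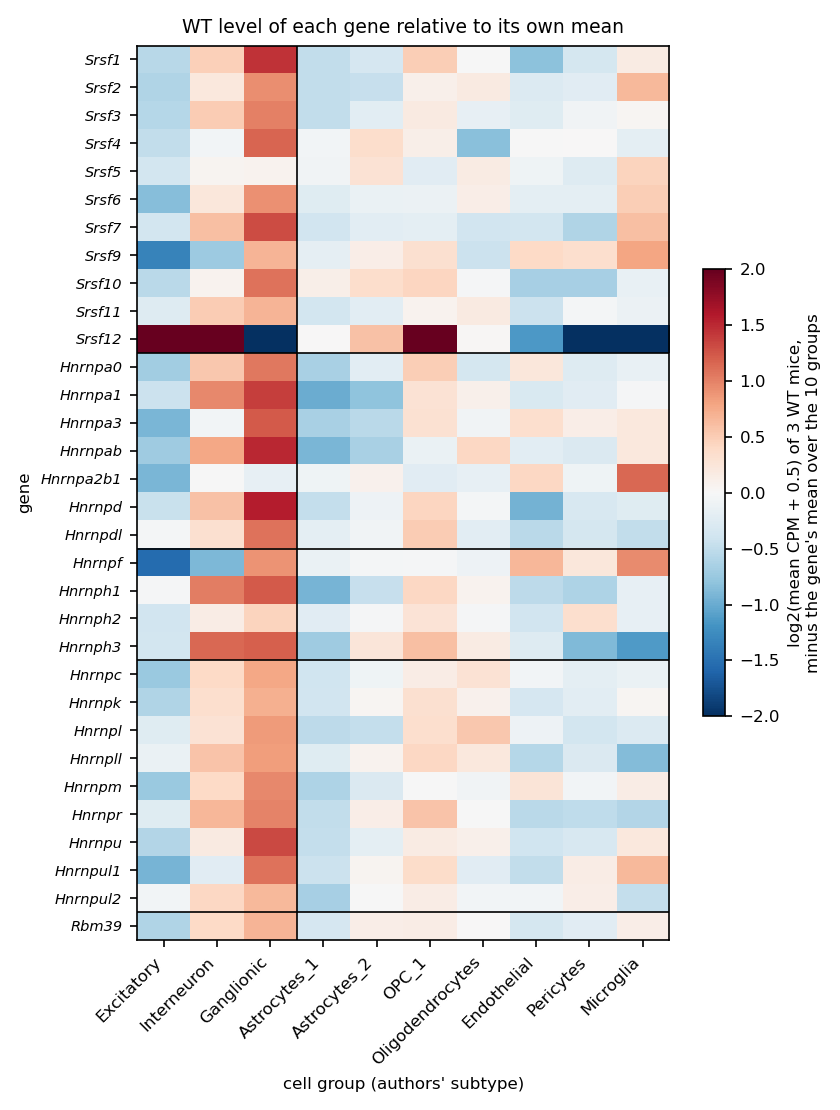
Level of each member (rows) in the 10 subtypes (columns) of WT mice, as log2 difference from the gene's own mean over the 10 subtypes (pseudocount 0.5 CPM; colours end at 2 in either direction). 27 of the 32 members were highest in ganglionic cells and 16 were lowest in excitatory neurons, counted for the members only.

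Against interneurons, ganglionic cells were called higher for 12 of 31 members and lower for 0, where 10.7% of all genes were called higher and 13.9% lower. The members' median log2 fold change was 0.50, that of all genes -0.09, and 28 members were above 0. The largest were *Hnrnpf* (1.67 ± 0.180), *Srsf9* (1.22 ± 0.295), *Hnrnpa3* (1.21 ± 0.145), *Hnrnpul1* (1.20 ± 0.176), *Srsf4* (1.11 ± 0.187), an SR protein with a long RS tail, and *Hnrnpu* (1.07 ± 0.154), which binds both chromatin and RNA. *Hnrnpf* was at 282, 267 and 231 CPM in interneurons of WT 1, 2 and 3, so its ganglionic level was above the others in each mouse. Called were 5 of 10 SR genes, 4 of 7 A/B/D genes, 1 of 4 F/H genes and 2 of the 9 other hnRNP genes. The count was 6 without WT 2 and 7 without WT 3, and 3 when each cell was thinned to 700 UMIs. The 3 members not above 0 were *Hnrnpa2b1* (-0.18), *Srsf5* (-0.11) and *Hnrnph3* (-0.020).

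Interneurons were above excitatory neurons for 18 of 31 members and below for 0, against 6.97% and 15.5% of all genes. The median was 0.70 for the members and -0.27 for all genes, and the 31 values were above 0. *Hnrnph3*, a small relative of *Hnrnph1*, differed by 1.38 ± 0.201, *Hnrnpab* by 1.27 ± 0.146, *Hnrnpa1*, the classic binder of splicing silencers, by 1.19 ± 0.186, *Hnrnpa0* by 1.01 ± 0.141, *Hnrnpm* by 0.94 ± 0.161 and *Hnrnpc*, which binds runs of U, by 0.89 ± 0.172. *Hnrnpa1* was at 325, 373 and 405 CPM in interneurons of WT 1, 2 and 3 and at 110, 147 and 164 in excitatory neurons, without overlap. *Rbm39* differed by 0.82 ± 0.177 and *Srsf3* by 0.86 ± 0.159. By group, 5 of 10 SR, 5 of 7 A/B/D, 2 of 4 F/H and 5 of 9 other hnRNP genes were called. Without WT 2, whose interneuron sum has 59 cells, 6 were called, and with all 6 mice in the fit 28. The median of all genes was -0.24 and -0.19 in these fits, and the share of all genes called was not counted for them.

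The order of the levels was much the same from mouse to mouse. In 6 of 6 mice 23 members followed the order ganglionic, interneuron, excitatory, 29 were higher in ganglionic cells than in excitatory neurons and 28 higher in interneurons than in excitatory neurons. 27 members had their highest WT level in ganglionic cells among the 10 subtypes, and 28 in *Fmr1*-KO mice. These counts were made for the members only, so they cannot be set against a share over all genes. Without *Srsf12*, the highest WT level of a member was 1.76 to 5.74 times its lowest, with a median of 3.37. At the low end stood *Srsf5* and at the high end *Hnrnpd*. Also without *Srsf12*, the lowest WT level was in excitatory neurons for 16 members, in the first astrocyte group for 5, in endothelial cells for 4, in microglia for 3, in pericytes for 2 and in oligodendrocytes for 1.

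4 members were highest in microglia in WT, namely *Srsf5*, *Srsf9*, *Hnrnpa2b1*, a factor of RNA trafficking, and *Hnrnpf*. *Srsf9* was at 225, 214 and 218 CPM in microglia of WT 1, 2 and 3 and at 199, 185 and 222 in ganglionic cells, which overlapped. *Hnrnpa2b1* was at 363, 405 and 365 CPM in microglia and at 186, 165 and 103 in ganglionic cells, with no overlap. *Hnrnpf* was at 735, 1032 and 1049 CPM in microglia, close to its ganglionic values, and in *Fmr1*-KO mice its highest subtype was the ganglionic cells.

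*Srsf12* went the other way. This relative of *Srsf10*, a splicing repressor, had a UMI in under 15% of the cells of each of the 10 subtypes and so was not tested. In excitatory neurons it had 41, 50 and 61 UMIs in WT 1, 2 and 3, or 32.5, 28.9 and 26.4 CPM, and in interneurons 10.2, 24.9 and 23.5 CPM. Ganglionic cells had 0 UMIs in the 3 WT mice, out of 941509, which allows up to 3.19 CPM over the group (3 counts). Its level over the 3 WT mice was thus at least 9.0-fold lower in ganglionic cells than in excitatory neurons, where it was 28.7 CPM, counting error only. The ganglionic cells of *Fmr1*-KO 1, 2 and 3 had 0, 3 and 1 UMIs.

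**Figure D3:**
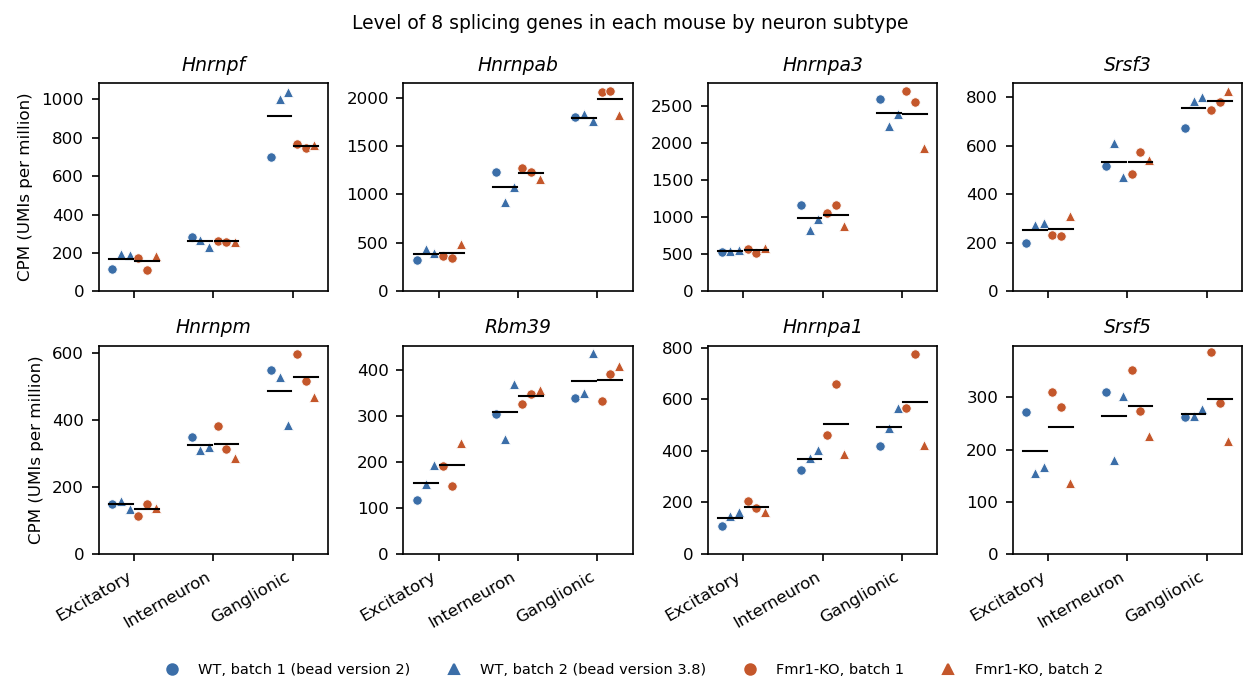
Level (CPM, y axis) of 8 members in excitatory neurons, interneurons and ganglionic cells (x axis), 1 point per mouse by genotype. Hnrnpf, Hnrnpab and Hnrnpa3 separated the ganglionic cells in each of the 6 mice, while WT and Fmr1-KO points overlapped in each subtype.

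The first OPC group against oligodendrocytes was a second pair of a precursor and a mature cell, and few members were called. The second OPC group, whose summed share in WT was 1.38% against 1.10% in the first, was not among the subtypes tested. In detail, 3 members were called higher in OPC and 1 lower, against 11.3% and 7.72% of all genes, and the median was 0.17 for the members and 0.15 for all genes. *Srsf4* (1.01 ± 0.231), *Hnrnpa0* (0.76 ± 0.146) and *Hnrnpdl* (0.69 ± 0.186), a relative of *Hnrnpd*, were higher and *Hnrnpab* (-0.62 ± 0.148) was lower in OPC. None of the 4 was called in the *Fmr1*-KO mice by themselves, where *Srsf6* (-0.65) was the single member called. Without WT 2 the count was 0, and without WT 3 it was 1.

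The 3 neuron subtypes together were above the 7 non-neuronal subtypes for 16 members and below for 3, where 26.4% of all genes were called higher and 24.5% lower. The medians were 0.31 and -0.02. This contrast averages over subtypes at opposite ends, since the summed share of excitatory neurons was below the mean of each non-neuronal subtype and that of ganglionic cells above. *Srsf3*, *Hnrnpa0* and *Hnrnpu*, called higher in neurons, had their lowest level of the 10 subtypes in excitatory neurons. *Hnrnph1*, which binds runs of G as *Hnrnpf* does, was higher in neurons by 0.94 ± 0.0859, and *Hnrnpf* was lower by 0.85 ± 0.0872 (log2 fold change -0.85). For *Hnrnpf* the lower level was that of excitatory neurons and interneurons, since ganglionic cells, at a mean of 913 CPM, were second only to microglia, at 938. *Hnrnph3* (0.81 ± 0.107), *Hnrnpa1* (0.78 ± 0.0925) and *Hnrnpd* (0.70 ± 0.0843) were higher, and *Srsf9* (-0.77 ± 0.138) and *Hnrnpa2b1* (-0.66 ± 0.113) lower. *Hnrnpa2b1* was not called in the *Fmr1*-KO mice by themselves (-0.27, edgeR adjusted p = 0.0618). The other members called higher were *Srsf1*, *Srsf3*, *Srsf7*, *Srsf11*, *Hnrnpa0*, *Hnrnpab*, *Hnrnpdl*, *Hnrnpl*, *Hnrnpll*, *Hnrnpr*, *Hnrnpu* and *Hnrnpul2*.

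Other splicing genes, in 6 lists of 97 genes in all, gave the setting. From excitatory neurons to ganglionic cells 16 of 20 tested genes of the core snRNP were called higher and 1 lower, where all genes had 17.4% and 28%, with a median of 1.31, led by the Sm proteins *Snrpf* (1.99 ± 0.166) and *Snrpe* (1.94 ± 0.161). Of the 14 genes of 3′ splice site recognition 13 were called higher, among them *U2af1* (1.37) and *U2af2* (1.17). Of the hnRNP proteins under other symbols 11 of 12 were called higher, and *Ptbp1*, the repressor of neuronal exons that is replaced by *Ptbp2* as neurons mature, had the largest value (3.68 ± 0.222). Of 18 SR-related genes and SR kinases 6 were called higher and 1 lower (*Tra2b* 1.48, *Acin1* 1.26), and of 7 genes of the exon junction complex 4 were called higher (*Rbm8a* 1.34, *Eif4a3* 1.23).

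The neuronal splicing regulators went the other way. Of 22 tested, 2 were called higher and 11 lower in ganglionic cells than in excitatory neurons, against the same 17.4% and 28% of all genes, with a median of -1.03. *Celf5*, of a family of mature neurons, was at -4.47 ± 0.416, and *Qk*, which is known from glia and neural precursors, at 2.52 ± 0.212. Against interneurons 3 were higher and 11 lower, where 10.7% and 13.9% of all genes were, with *Rbfox1* at -4.79 ± 0.611 and *Celf4* at -2.94 ± 0.370, while *Ptbp1* was 2.42 ± 0.229 higher in ganglionic cells. In that comparison 11 of 20 core snRNP genes were called higher and 1 lower (*Lsm2* 2.13 ± 0.309, *Snrpn* -1.90 ± 0.294).

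Within the neuron subtypes, no member was called between *Fmr1*-KO and WT. In excitatory neurons 28 members passed the 15% filter on cells with a UMI (all but *Srsf9*, *Srsf10*, *Srsf12* and *Hnrnpll*) and 0 were called with edgeR, as were 0% of the 3737 genes tested. At an unadjusted p under 0.05 there were 2 members higher in *Fmr1*-KO, against 1.93% of all genes, and 0 lower, against 1.55%, and DESeq2 also called 0 and gave 2. The median log2 fold change was 0.11 for the members and 0.0038 for all genes, with 21 of 28 above 0 and 51.2% of all genes. 15 members were higher in *Fmr1*-KO in both batches and 6 lower in both, against 22.3% and 23.7% of all genes. The median within batches was 0.109 in batch 1 and 0.0913 in batch 2. Markers of the subtypes where these genes were higher moved along in batch 1: in excitatory neurons the division markers summed to 545 CPM in WT 1 and to 1123 and 802 in *Fmr1*-KO 1 and 2, and the interneuron markers to 969 against 2193 and 1093. In batch 2 the division markers were at 466 and 235 CPM in WT 2 and WT 3 and 272 in *Fmr1*-KO 3, and the interneuron markers at 283 and 246 against 197. The part of either in the values of the members was not tested.

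*Rbm39* had the smallest p in excitatory neurons. Its level was 117, 152 and 193 CPM in WT 1, 2 and 3 and 192, 147 and 241 in *Fmr1*-KO 1, 2 and 3. The genotypes overlapped, since WT 3 stood as high as *Fmr1*-KO 1, but within each batch the *Fmr1*-KO mice were higher on average, by 0.53 in batch 1 and 0.48 in batch 2 on the log2 scale, with WT 2 and WT 3 both below *Fmr1*-KO 3. The fitted log2 fold change was 0.50 ± 0.157 (95% interval 0.16 to 0.85), and its edgeR adjusted p was 0.999 although its unadjusted p was under 0.05.

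*Hnrnpa1* was the second member with an unadjusted p under 0.05 there. Its CPM of 110, 147 and 164 for WT 1, 2 and 3 overlapped the 205, 179 and 163 for *Fmr1*-KO 1, 2 and 3, and the log2 fold change was 0.41 ± 0.179 (95% interval 0.023 to 0.80, edgeR adjusted p = 0.999). The log2 ratio was 0.80 in batch 1 and 0.07 in batch 2, and without WT 1, the single WT mouse of batch 1, the fitted value was 0.07. The next smallest p were those of *Hnrnph3* (0.27, 95% interval -0.083 to 0.62), *Hnrnpab* (0.19, -0.078 to 0.45), *Srsf3* (0.20, -0.084 to 0.48) and *Hnrnpk*, which binds runs of C (0.18, -0.088 to 0.45). *Hnrnpm* was at -0.12, and each of these had an edgeR adjusted p of 0.999. *Hnrnpl*, which binds CA repeats, was the single member whose *Fmr1*-KO mice were all below the WT mice (216, 217 and 234 CPM against 239, 274 and 263), as were 2.84% of all genes, with a log2 fold change of -0.16 (95% interval -0.45 to 0.12).

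In interneurons 31 members were tested and 0 called with edgeR, and 0 with DESeq2, against 0% of the 3177 genes. The median was 0.0078, with 16 of 31 above 0 and 50.9% of all genes, and 0.03 and -0.03 within batches 1 and 2. *Hnrnpa1* was the 1 member with an unadjusted p under 0.05, with either tool, where 2.14% of all genes were higher and 2.39% lower at that p. It was at 325, 373 and 405 CPM in WT and 461, 662 and 389 in *Fmr1*-KO, so *Fmr1*-KO 1 and 2 stood above the WT mice and *Fmr1*-KO 3 among them. Its log2 fold change was 0.43 ± 0.181 (95% interval 0.049 to 0.82, edgeR adjusted p = 0.998), with a log2 ratio of 0.79 in batch 1 and -0.0015 in batch 2, and without WT 1 it was -0.024.

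The next smallest p in interneurons were those of *Hnrnph1* (-0.18, 95% interval -0.39 to 0.024), *Srsf7*, which like *Srsf3* serves mRNA export (-0.23, -0.56 to 0.093), *Hnrnpul2* (-0.23, -0.57 to 0.12), *Srsf1* (-0.20, -0.51 to 0.11) and *Hnrnpul1* (0.22, -0.13 to 0.57), each with an edgeR adjusted p of 0.998. *Srsf7* and *Hnrnpul2* had all *Fmr1*-KO mice below all WT mice, as did 4% of all genes. *Rbm39* was at 0.14, *Srsf3* at 0.042 and *Hnrnpm* at -0.053. The signs of *Srsf3* and *Hnrnpm* depended on single mice: *Srsf3* was -0.043 without WT 3 and -0.02 without *Fmr1*-KO 2, and *Hnrnpm* 0.013 without *Fmr1*-KO 3.

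In ganglionic cells 0 of 31 members were called with edgeR or DESeq2, and 0.0499% of the 4009 genes were called with edgeR. With either tool 0 members reached an unadjusted p under 0.05, against 3.44% of all genes higher and 2.94% lower with edgeR. The median was -0.02, with 13 of 31 above 0 and 50.1% of all genes. Within batches the median was 0.0949 in batch 1 and -0.222 in batch 2. Without WT 1, which leaves the genotype to batch 2 with *Fmr1*-KO 3 as its single *Fmr1*-KO mouse, the median was -0.22. In that fit 11 of 31 members were above 0. The members with the smallest p in it were *Hnrnpf* (-0.42), *Hnrnpd* (-0.45), *Hnrnpul1* (-0.53), *Hnrnpa3* (-0.25) and *Hnrnpu* (-0.30).

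*Hnrnpu* had the smallest p in ganglionic cells, at 1382, 1095 and 1273 CPM in WT and 1310, 1258 and 956 in *Fmr1*-KO, which overlapped, with a log2 fold change of -0.20 ± 0.106 (95% interval -0.41 to 0.014, edgeR adjusted p = 0.791). *Hnrnpd* (-0.21), *Srsf9* (-0.26), *Srsf6* (-0.23), *Hnrnpa1* (0.22) and *Hnrnpa3* (-0.11) followed, with edgeR adjusted p between 0.860 and 0.886. *Srsf9* was the single member with all *Fmr1*-KO mice (167, 185 and 156 CPM) below all WT mice (199, 185 and 222), by a margin of less than 1 CPM, against 4.34% of all genes. *Srsf3* was at 0.12, *Rbm39* at 0.079 and *Hnrnpm* at 0.028. *Hnrnpa1* was -0.31 without WT 1, *Hnrnpa3* 0.017 without *Fmr1*-KO 3, *Srsf6* 0.26 with cells thinned to 700 UMIs, and *Hnrnpm* -0.052 without WT 3 and -0.018 without *Fmr1*-KO 1. The division markers were alike in the genotypes here, at 9319 to 12044 CPM in WT and 9507 to 11618 in *Fmr1*-KO.

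**Figure D4:**
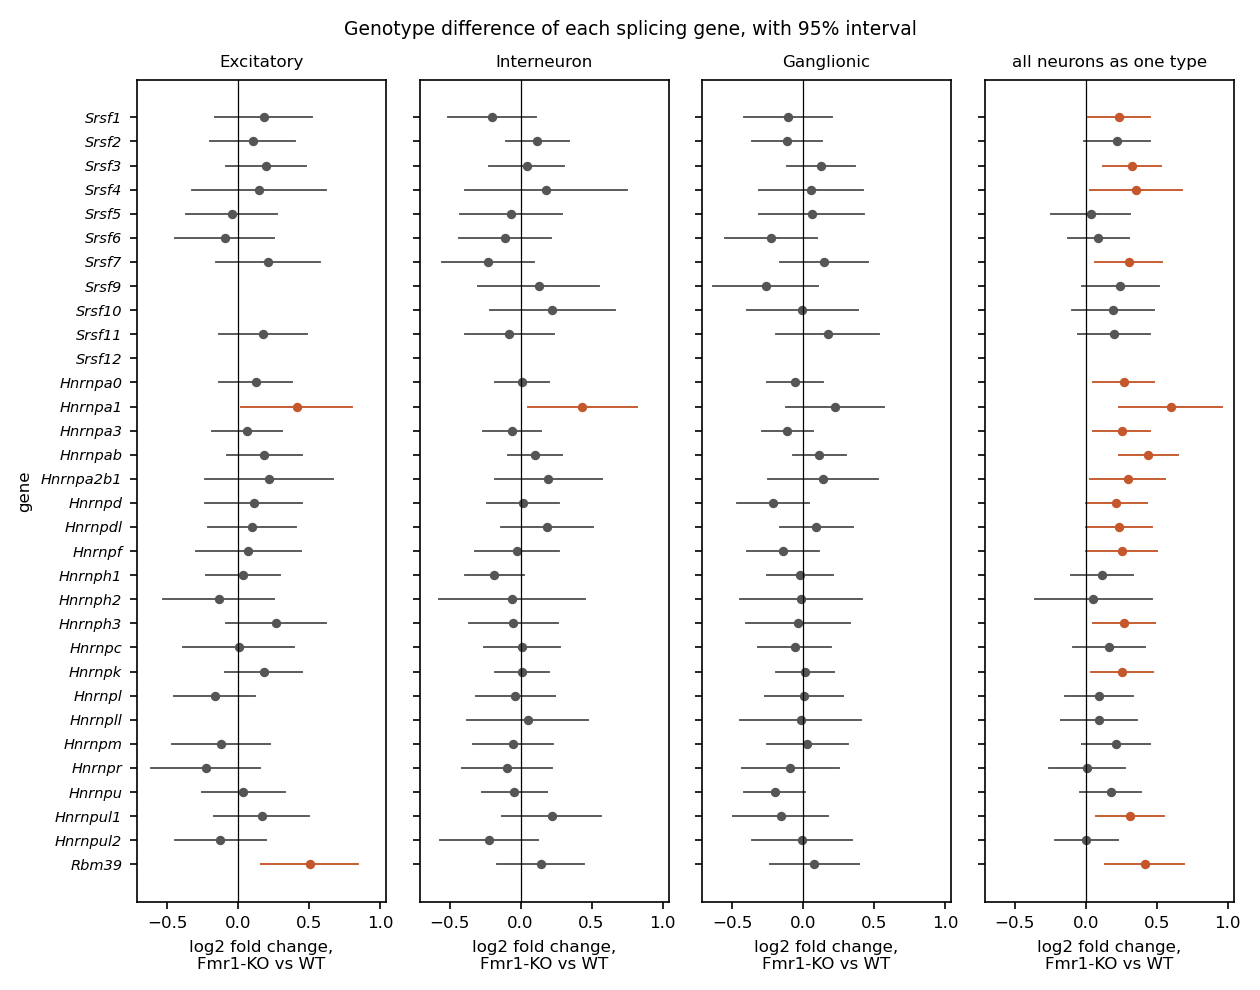
log2 fold change of each member, Fmr1-KO over WT (x axis), with its 95% interval from the edgeR fit, in excitatory neurons, interneurons, ganglionic cells and neurons as 1 type. Orange marks an unadjusted p under 0.05, which held for 2, 1, 0 and 16 members, and 0 members were called.

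A difference of 2-fold for any tested member in the 3 subtypes lay outside its 95% interval. The intervals reached from -0.61 to 0.85 in excitatory neurons, -0.57 to 0.82 in interneurons and -0.63 to 0.57 in ganglionic cells, and stayed within 1.5-fold for 22 of 28, 28 of 31 and 30 of 31 members. The genotype effects were also compared between subtypes, with the mouse as a block. 0 members were called (0% of all genes) and 0 had an unadjusted p under 0.05 in the 3 comparisons of subtypes with edgeR, against 2.51%, 2.56% and 3.67% of all genes at that p. The smallest p was that of *Srsf9*, whose effect was lower in ganglionic cells than in interneurons by 0.45 ± 0.266 (log2, -0.45; edgeR adjusted p = 1.00). These tests did not show that *Rbm39* or *Hnrnpa1* differed between genotypes in 1 subtype more than in another.

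In the 7 non-neuronal subtypes, 212 tests of members gave 0 calls with edgeR, 8 with an unadjusted p under 0.05 higher in *Fmr1*-KO and 3 lower. Over all genes of these subtypes 0.0143% of the tests were called, and 2.75% and 2.37% were higher and lower at that p. The lowest adjusted p of a member was 0.319. DESeq2 gave 0 calls, with 6 and 0 at that p. The 3 lower ones were *Srsf2* in the first and *Srsf7* and *Hnrnph3* in the second astrocyte group. *Rbm39* was among the 8 in endothelial cells (0.42 ± 0.157), *Hnrnpm* in OPC (0.31 ± 0.106) and *Srsf3* in oligodendrocytes (0.53 ± 0.211).

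Of the other splicing lists, 0 genes were called for genotype in the 3 neuron subtypes with edgeR. With an unadjusted p under 0.05 there were 0 higher and 2 lower of 69 tested in excitatory neurons, 2 and 1 of 81 in interneurons, and 3 and 2 of 82 in ganglionic cells, beside the shares of all genes given above for these subtypes. In excitatory neurons they were *Sf3b3* of the U2 snRNP (-0.38) and the SR kinase *Srpk2* (-0.33), both with an edgeR adjusted p of 0.999. In interneurons they were *Rbfox1* (-0.47), *Lsm4* (0.54) and *Eif4a3* (0.39), with an edgeR adjusted p of 0.998. In ganglionic cells they were *Upf3b*, which links exon junctions to NMD (0.75, edgeR adjusted p = 0.588), *Qk* (-0.37, adjusted p = 0.761), and *Lsm5* (0.50), *Ewsr1* (-0.32) and *Elavl4* (0.28), each with an edgeR adjusted p of 0.767. *Upf3b* stood at 73.9, 103 and 75.4 CPM in WT and 122, 129 and 149 in *Fmr1*-KO, without overlap, as held for 3.62% of all genes in this direction.

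Taken as 1 cell type, as the study also compared them, the neurons gave another picture. The log2 fold change was above 0 for 31 of 31 members, against 49.8% of the 3763 genes, with a median of 0.23 for the members and -0.00095 for all genes. 16 members were higher in *Fmr1*-KO at an unadjusted p under 0.05, against 8.18% of all genes, and 0 lower, against 8.45%. 0 members were called with edgeR, as were 0% of all genes, and 0 with DESeq2, which gave 8 at that p. 26 members were higher in both batches, against 30.7% of all genes, and the median within batches was 0.223 and 0.208. The 16 were 7 of 7 A/B/D genes, 4 of 10 SR genes, 2 of 4 F/H genes, 2 of 9 other hnRNP genes and *Rbm39*.

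*Hnrnpab* had the lowest adjusted p. Its level in neurons was 857, 627 and 609 CPM in WT and 1152, 1071 and 877 in *Fmr1*-KO, so the 3 *Fmr1*-KO mice stood above the 3 WT mice, by 0.44 ± 0.0922 (edgeR adjusted p = 0.128). With DESeq2 its adjusted p was 0.0366. 8 members had such a separation (*Srsf3*, *Srsf7*, *Rbm39*, *Hnrnpa0*, *Hnrnpa1*, *Hnrnpab*, *Hnrnpf* and *Hnrnpk*), against 5.16% of all genes.

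*Hnrnpa1* was at 230, 203 and 234 CPM in WT and 398, 469 and 264 in *Fmr1*-KO neurons (0.60 ± 0.162, edgeR adjusted p = 0.160; with no filter on low counts, 0.58, adjusted p = 0.0020, the 1 member called under any setting). *Srsf3* was at 376, 357 and 349 CPM against 460, 471 and 448 (0.32 ± 0.0916, adjusted p = 0.162), the tightest groups of the 3 genes that the study names. *Rbm39* was at 217, 182 and 242 CPM against 278, 279 and 295 (0.41 ± 0.122, adjusted p = 0.177). *Hnrnpm* overlapped, at 274, 211 and 186 CPM against 338, 300 and 229 (0.21 ± 0.105, adjusted p = 0.349), where WT 1 stood above *Fmr1*-KO 3. *Hnrnpul1* was at 0.31 (adjusted p = 0.212) and *Srsf7* at 0.30 (adjusted p = 0.229), all from edgeR.

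The mix of subtypes among the recovered neurons differed between the WT and the *Fmr1*-KO mice, though this was not tested. The study itself reports that it detected no change in the cell numbers of subtypes in *Fmr1*-KO. Ganglionic cells, where these RNAs were most abundant, were 10.9%, 13.2% and 12.3% of the neurons in WT 1, 2 and 3 and 18.5%, 23.5% and 22.2% in *Fmr1*-KO 1, 2 and 3. Excitatory neurons, where they were least abundant, were 56.8%, 75.3% and 49.5% in WT and 42.0%, 48.6% and 35.6% in *Fmr1*-KO. Neither of these shares of cells overlapped between genotypes, though the excitatory share of WT 3 (49.5%) was close to that of *Fmr1*-KO 2 (48.6%). The interneuron share did overlap, at 28.1%, 10.1% and 33.8% in WT and 35.7%, 21.9% and 34.5% in *Fmr1*-KO. Of the UMIs of neurons, ganglionic cells gave 15.8%, 11.2% and 7.87% in WT and 25.9%, 29.9% and 17.9% in *Fmr1*-KO. Excitatory neurons gave 44.6%, 79.8% and 72.2% in WT and 27.6%, 37.3% and 54.4% in *Fmr1*-KO. These overlapped, since WT 1 lay below *Fmr1*-KO 3. The division markers in neurons as 1 type were at 991 to 2380 CPM in WT and 1984 to 4031 CPM in *Fmr1*-KO. These shares are of the cells recovered after dissociation.

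When 59 cells of each of the 3 subtypes were drawn per mouse, so that each mouse had the same mix of cells, the members' median was 0.0053, with 16 of 31 above 0, as were 50.5% of all genes. At an unadjusted p under 0.05, 0 members were higher, against 1.78% of all genes, and 0 lower, and 0 were called with edgeR (lowest adjusted p = 0.997). When 177 neurons were drawn per mouse without regard to subtype, the same number of cells, the median was 0.23, with 29 of 31 above 0 against 50.7% of all genes, and 8 members higher at an unadjusted p under 0.05, against 5.82% of all genes. *Srsf3* was at -0.015 in the even mix and 0.38 in the random draw, *Hnrnpab* at 0.14 and 0.48, *Hnrnpm* at -0.065 and 0.071, *Rbm39* at 0.24 and 0.33 and *Hnrnpa1* at 0.31 and 0.49. *Srsf4*, *Hnrnpdl* and *Srsf11* were at 0.31, 0.17 and 0.16 in the even mix, and no difference between members was tested.

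The even mix held for cells and not for UMIs, since cells differed in depth. Ganglionic cells gave 39.7%, 32.1% and 25.4% of the UMIs of the even mix in WT 1, 2 and 3 and 45.2%, 43.0% and 27.5% in *Fmr1*-KO 1, 2 and 3. The draws were therefore repeated with each cell thinned to 700 UMIs, so that each subtype gave 41300 UMIs per mouse. The members' median was then -0.042 in the even mix, with 13 of 31 above 0 against 50.4% of all genes. At an unadjusted p under 0.05, 1 member was higher, against 2.07% of all genes, and 1 lower, with 0 called (lowest edgeR adjusted p = 0.995). In the thinned random draw the median was 0.26, with 24 of 31 above 0 against 49.2%, and 5 members were higher at that p, against 2.68%. With and without thinning, the random draw gave a median near that of all neurons and the even mix a median near 0. Each kind of draw was made a single time, and the even mix left out the small neuron groups, which the random draw could include. The part of the subtype mix in the values of neurons as 1 type was not tested.

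**Figure D5:**
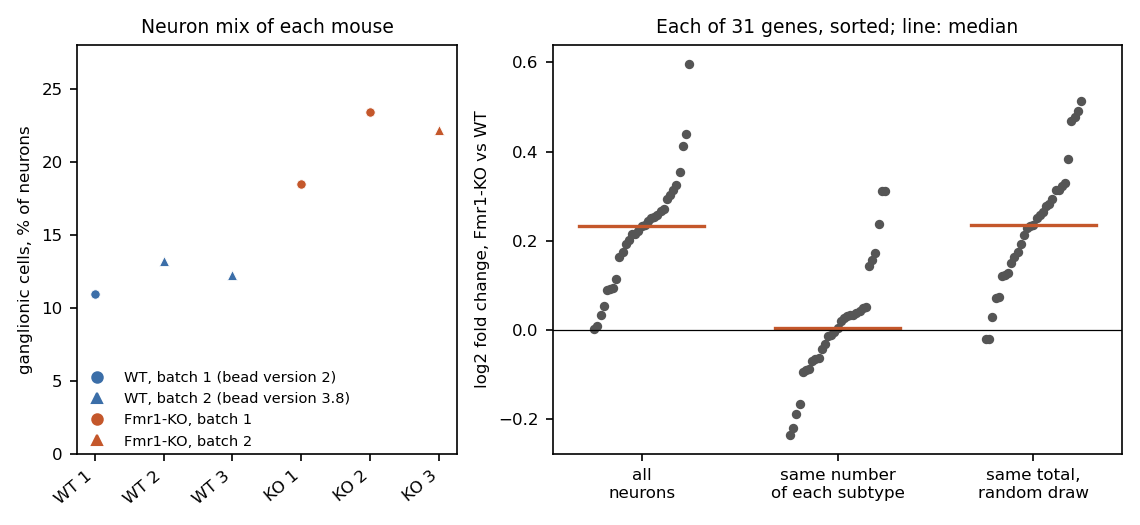
Left, ganglionic cells as percent of neurons in each mouse (y axis) by genotype. Right, log2 fold change (Fmr1-KO over WT) of the 31 tested members for all neurons, for 59 cells of each subtype per mouse and for 177 neurons drawn at random, with the median as a line at 0.23, 0.0053 and 0.23.

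Without the cells of shared barcodes the genotype medians were 0.10, -0.03, -0.0049 and 0.22 in excitatory neurons, interneurons, ganglionic cells and neurons as 1 type, with 1, 1, 0 and 11 members higher at an unadjusted p under 0.05 and 0 called. Over all genes 1.42%, 2.01%, 3.19% and 7.33% were higher at that p. The summed share of UMIs was then 1.75% to 2.07% in ganglionic cells, 1.14% to 1.35% in interneurons and 0.583% to 0.703% in excitatory neurons over the 6 mice.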

How the data were processed

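Single-cell RNA was measured by InDrop in cortical cells of 6 mice, 3 of each genotype. Per the study's methods and the submitters' processing notes, the authors aligned reads with TopHat2 2.0.14 to mm10, assigned them to RefSeq genes with ESAT, ignored multi-mapped reads and merged UMIs with sequencing errors. The authors deposited raw UMI counts of 17418 genes in 18393 cells together with subtype, cell cycle and doublet labels, which were used as given. Precision is limited by 3 mice per genotype and by the summed depth, 160754 UMIs for the smallest neuron group and 3203044 for the largest. Replicates are separate mice.

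Counts were summed per mouse and subtype without doublets. The quasi-likelihood test of edgeR 4.0.16 (R 4.3.3, TMM scaling) compared genotypes with batch as a covariate, over genes detected (at least 1 UMI) in 15% or more of its cells, and 10 subtypes of the WT mice with the mouse as a block. A call needed a Benjamini-Hochberg adjusted p under 0.01 over the genes tested and at least 1.15-fold, the study's thresholds. *Fmr1* had a UMI in 15.0% of all cells, rounded from just under the filter, and was added to the all-cells fit by name. SE is the log2 fold change divided by the square root of F, and intervals use the t quantile at the degrees of freedom of the fit. In ganglionic cells, interneurons and excitatory neurons the test recovered 58.5%, 77% and 92% of 200 genes changed 2-fold in simulated counts, and 2%, 0.5% and 6% at a log2 change of 0.5, on 4009, 3177 and 3737 genes. In neurons as 1 type (3763 genes) it recovered 97% and 11.5%. The simulated counts had the same dispersion for each gene and no batch effect, so these rates need not hold for the counts of these mice. No pair of mice had counts equal within sampling noise. Levels are UMIs per 1000000 and are compared within a gene only, since 3′ counts are not scaled by length.

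The members, the lists of other genes and the tests were chosen with earlier results of these data known. Named with values are the 3 genes the study names, the 6 smallest p for genotype in each neuron comparison, the 6 largest calls of each comparison of cell types, members below the filter and the 2 smallest p of each other list in each neuron subtype where p was under 0.05. Other genes named for separated groups, for an order or for a batch split were chosen after their values were seen. Alternatives were DESeq2 1.42.0, other filters and scaling, thinning to 700 UMIs per cell, each mouse left out, an even mix of subtypes and, chosen after seeing the data, a random draw of neurons, both draws with cells thinned to 700 UMIs, ganglionic cells called G1 and the removal of cells with shared barcodes. Python 3.11.15 with scipy 1.17.1 was used for tables.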

Additional observations from a re-analysis of the deposited data

How the results depend on the processing

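Each count of members called and each median was recomputed under each alternative. Of these values, 240 stayed within 1.5 times the count or 1 SD between mice of the median, or kept their call, 19 moved further and 4 lost a call. For genotype, 0 members stayed 0 under each alternative except neurons as 1 type with no filter on low counts, where 1 was called (*Hnrnpa1*, 0.58). With a mouse left out, the medians ran from 0.05 to 0.14 in excitatory neurons, -0.04 to 0.03 in interneurons, -0.22 to 0.10 in ganglionic cells (-0.22 without WT 1) and 0.20 to 0.25 in neurons. For the comparisons of cell types, the share of all genes called was counted in the main fits only. Ganglionic cells against excitatory neurons gave 23 to 28 calls with a mouse left out. Ganglionic cells against interneurons gave 6 to 16 with a mouse left out (6 without WT 2, 7 without WT 3), 3 with thinned cells, 22 with all 6 mice and 6 at 2-fold. Interneurons against excitatory neurons gave 6 to 15 (6 without WT 2), 28 with all 6 mice and 4 at 2-fold. OPC against oligodendrocytes gave 0 to 3 (0 without WT 2, 1 without WT 3), 0 with thinned cells, 1 in *Fmr1*-KO mice by themselves, 7 with all 6 mice and 1 at 2-fold. Neuron against non-neuronal subtypes gave 13 to 19, 12 with no filter and 0 at 2-fold. From excitatory neurons to ganglionic cells, the median of all genes lay between -0.33 (without WT 3) and -0.05 (library size without TMM) over the alternatives. The members' median less that of all genes stayed between 1.52 and 1.76. *Fmr1* was at -2.01, at -1.81 with thinned cells, and at -2.16 to -1.87 with a mouse left out. It missed the adjusted p with thinned cells and without WT 1, WT 2 or *Fmr1*-KO 3. Leaving out mice lowers the number of samples, and thinning lowers the counts; the cause of the other moves was not tested.

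Replicate numbers are shared by the genotypes, but the deviations of same-numbered mice correlated at 0.78, -0.50 and 0.80 in neurons, so they do not pair the mice. With a replicate block in place of the batch, the medians were 0.11, 0.05, 0.02 and 0.36 in excitatory neurons, interneurons, ganglionic cells and neurons as 1 type, 0 members were called, and *Hnrnpm* in interneurons turned to 0.0023. Of the values of single genes, 775 kept their direction and call, 25 differences between cell types lost the call under an alternative, and 20 genotype values turned sign, none of them called. In interneurons these were *Hnrnpm* (0.0036 with no batch term, and -0.15 to 0.013 with a mouse left out, highest without *Fmr1*-KO 3), *Hnrnpul1* (-0.0036 thinned), *Hnrnpa1* (-0.024 without WT 1 to 0.79 without *Fmr1*-KO 3) and *Srsf3* (-0.043 without WT 3, -0.02 without *Fmr1*-KO 2, highest 0.10). In ganglionic cells they were *Hnrnpa1* (-0.31 without WT 1 to 0.69 without *Fmr1*-KO 3), *Hnrnpa3* (-0.25 without WT 1 to 0.017 without *Fmr1*-KO 3, and 0.027 in G1-called cells), *Hnrnpm* (-0.052 without WT 3, -0.018 without *Fmr1*-KO 1, highest 0.11, and -0.018 without shared barcodes) and *Srsf6* (0.26 thinned). In the even mix of neurons they were *Hnrnpm* (-0.065), *Hnrnpul1* (-0.012, and -0.33 thinned) and *Srsf3* (-0.015, and -0.078 thinned), and *Hnrnpul1* was at -0.11 in the thinned random draw. The thinned even mix moved the median in neurons to -0.042.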
